A study of Saccharomyces cerevisiae with 95 samples.

Results

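The regions described here are the weakest entries in a list of binding summits of Red1 on budding yeast chromosomes in meiosis. Red1 is a structural protein of the meiotic chromosome axis, the protein core from which each chromosome's chromatin loops extend in prophase. It works together with the axis protein Hop1 and with cohesin that holds the meiotic subunit Rec8. Axis proteins are most enriched at particular sites along the chromosome, many of them between genes transcribed towards each other, and the axis takes part in the formation and repair of the DNA breaks that start recombination.

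A peak is a stretch where the chromatin immunoprecipitation (ChIP) library is enriched over input. Its summit is the single base that marks the highest point of the ChIP signal in it. The members were chosen by score alone: a summit belonged to the set when the score that the authors deposited with it, a −log10 of a p-value or q-value from peak calling, was under 50. The list held 2385 summits, and 497 of them (20.8%, exact 95% interval 19.2 to 22.5%) met this rule. They are called weak below. They were set against 1466 mid-scoring summits (50 to under 1000, 61.5% of the list), and their position was measured from the 422 strong summits (1000 or more, 17.7%). The word weak refers to this score, which combines the enrichment with the depth of the libraries, and not to a measured amount of protein.

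The study used ChIP followed by sequencing in the SK1 strain to compare the binding of axis proteins, the cohesin loader and condensin in wild type and mutant meiosis, and 95 samples in 49 groups are labelled. The labels of 8 of them name the list: 4 anti-Red1 libraries titled wild type, their 3 wild type inputs, and 1 SMC4-PK9 input made without a second sonication. All were fixed 3 hours into a synchronous meiosis, with no drug named. One of the 4 anti-Red1 libraries carries the genotype label H6408 that the SMC4-PK9 strain also has, so a tagged condensin subunit may be present in it, and the other 3 carry H119. The authors pooled the libraries before calling summits. Each summit therefore has 1 score and no value per library, the depth is unknown, and no difference below has a replicate error. Intervals given below cover counting error only and treat summits as independent, which neighbours on a chromosome may not be. The same data chose the members and place them, so the comparisons are descriptions and no p-value is given. The remaining 87 samples were not analysed here.

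The scores of the 497 weak summits ran from 20.0 to 49.8, a 2.49-fold range, with a median of 31.7 and an interquartile range of 24.8 to 40.1. The weakest were the most numerous. There were 217 summits scoring 20 to under 30, 150 scoring 30 to under 40, and 130 scoring 40 to under 50, followed by 99 scoring 50 to under 60. The numbers thus continued across the limit of 50 without a step, with 59 summits from 45 to under 50 and 59 from 50 to under 55.

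The 5 lowest scores lay between 20.0 and 20.1, at the floor of the list. They were found at position 601998 of chromosome IV, positions 245299 and 932221 of chromosome XII, position 193927 of chromosome XIII and position 166626 of chromosome VI, in the authors' SK1 assembly (1-based). They lay in different surroundings. The summit on chromosome XIII was 817 bp from a strong summit scoring 1088, and the one at position 932221 was 795 bp from a strong summit scoring 1144. The one at position 245299 lay 17122 bp from any strong summit and had another weak summit on each side.

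At the upper edge, the 5 members just under the limit scored 49.5 to 49.8. They were at position 444310 of chromosome XI, position 789113 of chromosome XVI, position 657678 of chromosome XV, position 527528 of chromosome XIV and position 188594 of chromosome XIII. The 5 summits just outside the set scored 50.2 to 50.4. They were at position 620915 of chromosome II, position 515777 of chromosome XV, position 426766 of chromosome XI, position 455677 of chromosome VII and position 1021536 of chromosome XII. The members just inside lay 6150 to 20457 bp from a strong summit, and those just outside 3219 to 27673 bp, so the ranges overlapped.

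Weak summits were found on all 16 nuclear chromosomes. Their share of a chromosome's listed summits averaged 20.8 ± 3.35% (SD, 16 chromosomes). The counting error of shares from this many summits alone amounts to an SD of 3.59 percentage points, so the spread between chromosomes was no larger than counting gives. The lowest share was on chromosome VIII, with 20 of 119 summits (16.8%, exact interval 10.6 to 24.8%). Chromosomes II (17.0%, 27 of 159) and I (17.2%, 11 of 64) followed closely. The exact interval held the share of the whole list on 15 of the 16 chromosomes.

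Chromosome XVI was the exception. It carried 52 weak summits among 182 (28.6%, exact interval 22.1 to 35.7%), beside 94 mid-scoring summits (51.6%) and 36 strong ones (19.8%). The excess lay in the inner part of the chromosome. In each of the 7 consecutive 100 kb windows between positions 100001 and 800000, a stretch singled out after its values were seen, weak summits made up 26.3 to 36.8% of the list, and together they were 45 of 142 summits (31.7%). In the other 3 windows, at the ends of the chromosome, the share was 14.3 to 21.4%, with 7 weak summits among 40 (17.5%). With 16 chromosomes compared and no replicate list, no test was made of whether chromosome XVI differs from the others. The next highest shares were 25.3% on chromosome III (21 of 83), 23.8% on chromosome XII (46 of 193), which carries the ribosomal DNA array, and 23.7% on chromosome XIV (37 of 156).

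**Figure D1:**
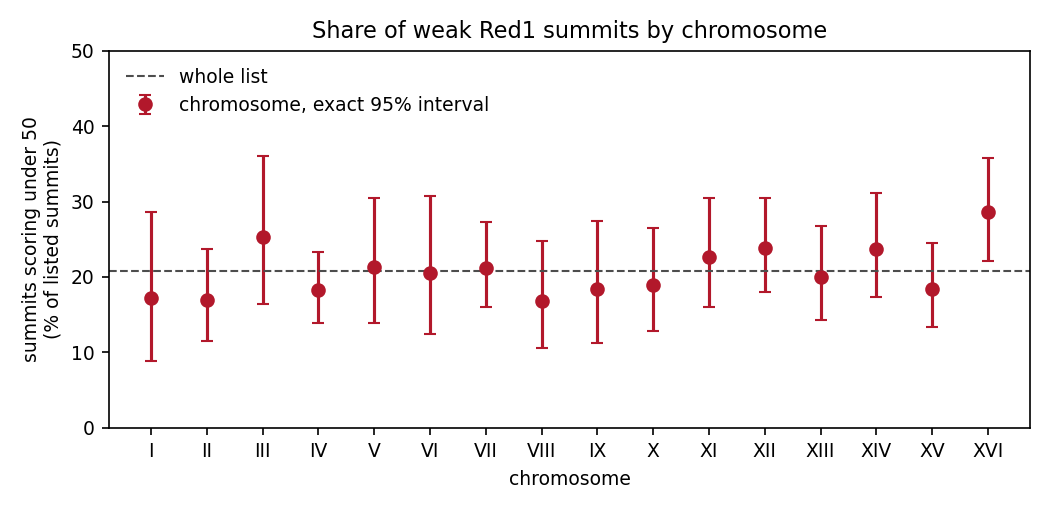
Percent of the listed Red1 summits that scored under 50 on each chromosome (points, with exact 95% binomial intervals as bars), and the share of the whole list (dashed line, 20.8%). The intervals of 15 chromosomes hold the line, and that of chromosome XVI (22.1 to 35.7%) lies above it.

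The 3 shortest chromosomes (VI, III and I) held 49 weak summits among 230 (21.3%), against 448 among 2155 (20.8%) on the other 13. Per length, weak summits numbered 4.34 per 100 kb over the 11446 kb between the first and last summits of the chromosomes. The density ran from 3.44 per 100 kb on chromosome II to 6.81 per 100 kb on chromosome III. Chromosomes VI (6.25), XVI (5.82) and I (5.49) came next. The short chromosomes were therefore among the densest in weak summits while their weak share was close to that of the list.

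Weak summits were present throughout. None of the 111 full 100 kb windows lacked one, and the number in a window ran from 1 to 10 with a median of 4. The fullest window was the first of chromosome III (positions 1 to 100000), with 10 weak, 8 strong and 10 other summits among 28. The variance of the window counts was 0.984 times their mean for weak summits and 1.12 times for mid-scoring ones. A ratio of 1 is that of counts scattered independently at 1 rate.

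Along the chromosomes, weak summits mostly stood alone. Of the 497, 338 (68.0%) had no weak summit directly before or after them in the list. The others formed 57 pairs, 12 runs of 3, 1 run of 4 and 1 run of 5, so that the 497 summits fell into 409 runs with a mean of 1.22 members. The 405 summits scoring 50 to under 100, a class of similar size, gave a near-identical picture: 281 of them (69.4%) stood alone, and their 335 runs averaged 1.21 members with a longest of 4. Of the 422 strong summits, 296 (70.1%) stood alone, and their runs averaged 1.19 members. The weak class holds 20.8% of the list, and these classes hold 17.0 and 17.7%. Standing alone was thus not particular to weak summits. On chromosome I all 11 weak summits stood alone.

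A weak summit was not followed by another weak one more often than other summits were. The next summit was weak after 88 of 491 weak summits (17.9%, exact interval 14.6 to 21.6%), after 305 of 1456 mid-scoring summits (20.9%, 18.9 to 23.1%) and after 97 of 422 strong summits (23.0%, 19.1 to 27.3%). The difference between weak and mid-scoring summits was -3.03 percentage points, with an interval of -6.98 to 1.20 that includes 0. The share was lower after weak than after mid-scoring summits on 8 chromosomes and higher on the other 8.

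The neighbours of weak summits were more often strong. The next summit was strong after 116 of 491 weak summits (23.6%, exact interval 19.9 to 27.6%), against 238 of 1456 mid-scoring summits (16.3%, 14.5 to 18.3%). The difference was 7.28 percentage points (interval 3.08 to 11.7). It was 11.5 points with the weak limit at 30, 4.51 points with that limit at 100, and 3.48 points with the strong limit at 2000. The mid-scoring class then began at 100 for the second value and ran to under 2000 for the third. Counting both sides, 191 of the 484 weak summits with 2 neighbours (39.5%) touched a strong one, against 457 of 1447 mid-scoring summits (31.6%). The difference was 7.88 percentage points (interval 2.85 to 12.99). Between 2 strong summits sat 21 weak ones (4.34%), while 174 (36.0%) sat between 2 mid-scoring ones and 17 (3.51%) between 2 weak ones. Strong, mid-scoring and weak summits make up 17.7, 61.5 and 20.8% of the list. The counts that these shares alone would give were not computed.

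**Figure D2:**
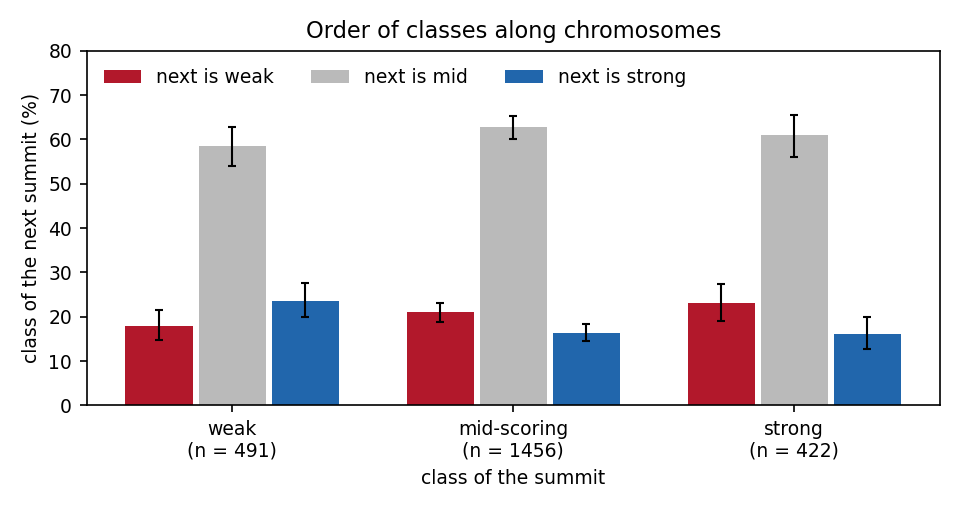
Class of the next summit along the chromosome (bars, percent, with exact 95% intervals) after weak, mid-scoring and strong summits. The next summit was strong after 23.6% of weak summits and after 16.3% of mid-scoring ones, and weak after 17.9% and 20.9% of them.

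The longest run, of 5, lay between positions 1255809 and 1263624 of chromosome IV. Its scores were 20.2 at position 1255809, 27.8 at positions 1257455 and 1257933, 28.2 at 1259138 and 47.9 at 1263624. It began 1076 bp after a strong summit scoring 1533 and ended 964 bp before a summit scoring 108, and its members lay 1076 to 8891 bp from a strong summit. No peak number was missing within it.

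The run of 4 lay on chromosome XII between positions 436301 and 465828, over 29527 bp. Its scores were 44.4, 48.9, 38.5 and 28.8. It was far from strong sites, 26040 to 55567 bp away, and 3 peak numbers within it have no summit in the list, so unlisted peaks lie among its members. Chromosome XII carries the ribosomal DNA array, whose position in the authors' assembly was not looked up here.

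The first run of 3 by chromosome lay on chromosome II at positions 25213, 25945 and 34280, with scores of 29.8, 41.2 and 31.6. It was 35357 to 44424 bp from a strong summit. The other 11 runs of 3 were found on chromosomes III, IV, VI, VII, IX (2 runs), X, XI, XII, XIII and XVI. They did not share one kind of surrounding. The run on chromosome III, from 39668 to 42201, filled the space between strong summits scoring 1296 and 1563, and that on chromosome XVI, from 91221 to 119629, lay between strong summits scoring 1706 and 1366. The run on chromosome VI, from 9766 to 20803, opened that chromosome's list and was 43227 to 54264 bp from any strong summit.

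The distance to the nearest strong summit differed between weak and mid-scoring summits mainly at short range. The median was 8891 bp for weak summits (interval 7826 to 10191 bp, interquartile range 3582 to 18555 bp) and 10400 bp (10399.5 before rounding, interval 9855 to 11168 bp, interquartile range 5115 to 19611 bp) for mid-scoring ones. The difference of -1508.5 bp had an interval of -2822 to -99 bp. It was not uniform, since the weak median was the lower one on 9 chromosomes and the higher one on 7, and with chromosomes weighted equally the difference was -827 bp. Nor did it hold for all of the weak range. The median distance was 8434 bp for the 217 summits scoring 20 to under 30 and 7166 bp (7165.5 before rounding) for the 150 scoring 30 to under 40, but 10958.5 bp (interval 9040 to 13532 bp) for the 130 scoring 40 to under 50, above that of the mid-scoring summits.

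Within 2 kb of a strong summit lay 62 of 497 weak summits (12.5%, exact interval 9.70 to 15.7%), against 88 of 1466 mid-scoring summits (6.003%, 4.84 to 7.34%). The difference was 6.47 percentage points (interval 3.39 to 9.90), and the weak share was the higher one on 15 of 16 chromosomes, chromosome XII being the exception (6.52% and 6.61%). These weak shares rest on only 1 to 8 summits per chromosome. The shares were close on chromosomes VI (11.8% and 10%) and X (7.69% and 6.98%) as well. Over all chromosomes, the size of the difference depended on the strong limit, which is also the upper limit of the mid-scoring class. It was 3.53 points with the limit at 500 and 1.54 points, outside the interval, with it at 2000. Within 5 kb the shares were 34.6% for weak and 24.2% for mid-scoring summits, a difference of 10.4 points (5.63 to 15.3). The difference shrank to 6.17 points within 10 kb and to 1.08 points (interval -3.45 to 5.39) within 20 kb.

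At the closest range few summits were left to compare. Within 1 kb lay 16 weak summits (3.22%) and 34 mid-scoring ones (2.32%), a difference of 0.90 points with an interval of -0.74 to 2.98. Within 500 bp there were 9 mid-scoring summits and no weak one. The 421 kb of chromosome within 500 bp of a strong summit allow, with a count of 0, up to 0.712 weak summits per 100 kb.

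**Figure D3:**
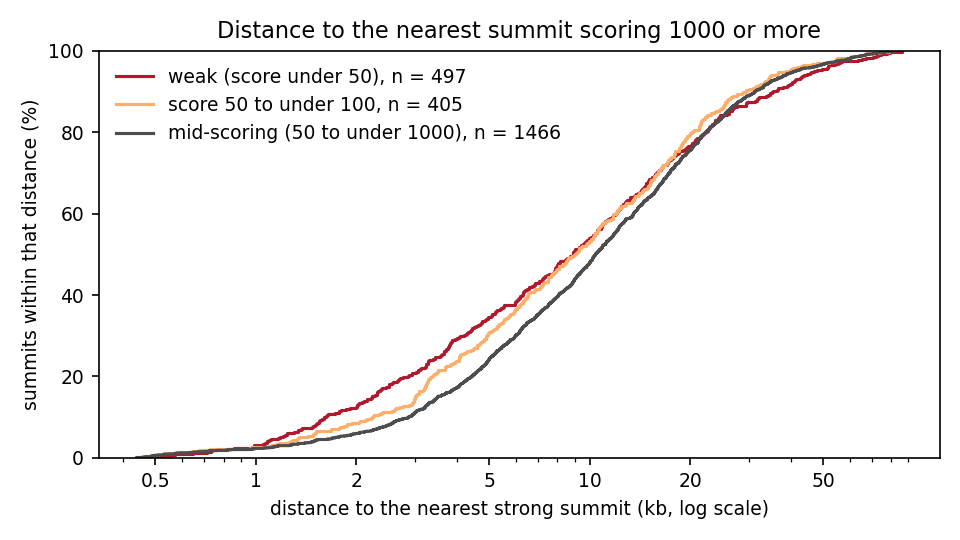
Cumulative percent of summits within a given distance (kb, log axis) of the nearest strong summit, for weak summits, for those scoring 50 to under 100 and for all mid-scoring summits. The weak curve lies above the mid-scoring one between about 1 and 10 kb (34.6% and 24.2% within 5 kb), and the curves meet near 20 kb.

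The members closest to strong sites were at position 157941 of chromosome VIII, 502 bp from a strong summit scoring 2174, at position 119629 of chromosome XVI, 510 bp from one scoring 1366, and at position 490063 of chromosome XIV, 558 bp from one scoring 1043. Their own scores were 39.9, 44.6 and 37.6. The farthest members were at positions 27174 and 28347 of chromosome XV, 85858 and 84685 bp away, with scores of 33.9 and 49.4. The first of these is the outermost listed summit on its side of the chromosome. The third was at position 410478 of chromosome XII, 79285 bp away, with a score of 22.7.

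Set against the length of chromosome available at each distance, the density of weak summits varied less from 0.5 kb outwards than that of mid-scoring ones. Their density was 3.81 per 100 kb at 0.5 to 1 kb from a strong summit (95% Poisson interval 2.18 to 6.19), 5.51 at 1 to 2 kb, 5.19 at 2 to 3 kb, 4.59 at 3 to 5 kb, 3.67 at 5 to 10 kb, 4.43 at 10 to 20 kb and 5.02 beyond 20 kb. Mid-scoring summits were sparse beside strong sites and more frequent with distance. Their density was 5.95 per 100 kb at 0.5 to 1 kb, 6.47 at 1 to 2 kb, 9.15 at 2 to 3 kb, 13.02 at 3 to 5 kb, 13.2 at 5 to 10 kb, 16.0 at 10 to 20 kb and 15.5 beyond 20 kb. Weak summits accordingly made up 46.0% of weak and mid-scoring summits together at 1 to 2 kb (exact interval 36.0 to 56.3%), the highest share of these zones. The share was 39.0% at 0.5 to 1 kb, 36.2% at 2 to 3 kb and 26.1% at 3 to 5 kb. Farther out it was 21.8% at 5 to 10 kb (18.0 to 25.9%), 21.7% at 10 to 20 kb and 24.5% beyond 20 kb.

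**Figure D4:**
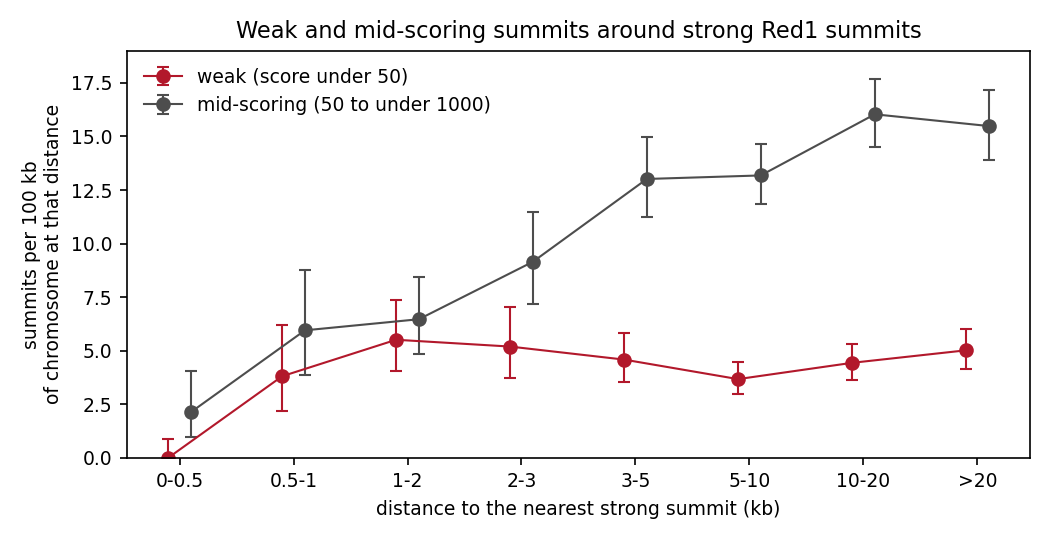
Weak and mid-scoring summits per 100 kb of chromosome at each distance (kb) from the nearest strong summit, with 95% Poisson intervals. Weak summits stay between 3.67 and 5.51 per 100 kb from 0.5 kb outwards, while mid-scoring summits go from 5.95 at 0.5 to 1 kb up to 15.5 beyond 20 kb.

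Over a near zone of 0.5 to 5 kb and a far zone beyond 10 kb, which were chosen after the values were seen, weak summits numbered 4.85 per 100 kb near and 4.71 per 100 kb far, a difference of 0.14 (interval -0.82 to 1.12). Mid-scoring summits numbered 9.76 near and 15.8 far, a difference of -6.02 (interval -7.55 to -4.47). The mid-scoring density was lower near strong summits on all 16 chromosomes, and the weak density on 9 of 16. With chromosomes weighted equally, the mean difference was -0.75 per 100 kb for weak summits (SD 3.12), opposite in sign to the pooled value. It was -6.70 per 100 kb for mid-scoring ones (SD 3.41). The result for weak summits depended on the far zone. Against the adjoining 5 to 10 kb, where weak summits were sparsest (3.67 per 100 kb), their near density was higher by 1.18 per 100 kb (interval 0.11 to 2.22), and against all distances over 5 kb by 0.50 (interval -0.35 to 1.41). The mid-scoring density was lower near strong summits in both of these comparisons, by a difference of -3.42 per 100 kb (interval -5.19 to -1.69) and of -5.10 per 100 kb (interval -6.45 to -3.72). All of these zones include stretches outside a chromosome's outermost strong summits, which held 61 weak and 167 mid-scoring summits. The densities by distance were not computed without those stretches.

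The near and far densities did not change in order with score across the limit of 50. Within the weak summits, the near density minus the far density was 0.18 per 100 kb at scores of 20 to under 30 (interval -0.45 to 0.84), 0.39 at 30 to under 40 (interval -0.15 to 0.96) and -0.43 at 40 to under 50 (interval -0.92 to 0.07). The ratio of near to far density was 0.70 in the last of these classes, lower than the 0.88 at scores of 50 to under 100 and the 0.86 at 100 to under 200. Among the 405 summits scoring 50 to under 100, the near density was 3.44 and the far density 3.91 per 100 kb, a difference of -0.47 (interval -1.30 to 0.39), and at 100 to under 200 it was -0.48 (interval -1.26 to 0.33). The lower density near strong sites was found in the upper part of the mid-scoring range. It was 1.78 near and 4.69 far per 100 kb at scores of 200 to under 500 (difference -2.92, interval -3.69 to -2.14), and 1.52 near and 3.68 far at 500 to under 1000 (difference -2.16, interval -2.85 to -1.46).

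The share within 2 kb of a strong summit was 12.9% at scores of 20 to under 30, 14% at 30 to under 40, 10% at 40 to under 50, 8.64% at 50 to under 100, 7.01% at 100 to under 200, 3.84% at 200 to under 500 and 4.01% at 500 to under 1000. Weak summits exceeded those scoring 50 to under 100 by 3.83 percentage points, with an interval of -0.38 to 7.95. Their median distance to a strong summit, 8891 bp, differed from the 9048 bp of that class by -157 bp (interval -1844 to 1715 bp). Among the weak summits themselves, score and distance to a strong summit were nearly unrelated (Spearman's rho 0.060 over 497 summits of 1 pooled list).

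**Figure D5:**
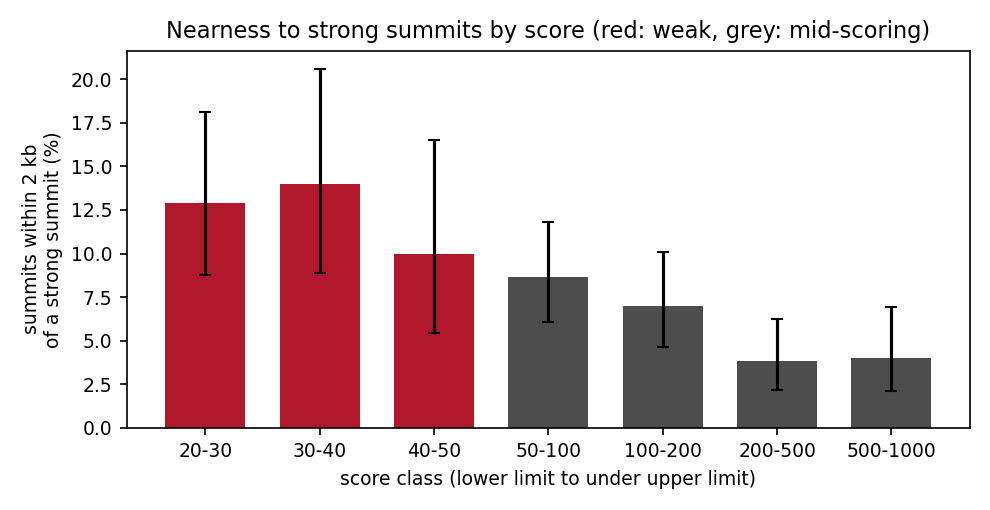
Percent of summits within 2 kb of a strong summit by score class (bars, with exact 95% intervals; red for weak and grey for mid-scoring classes). The share is 12.9, 14 and 10% in the 3 weak classes and 8.64, 7.01, 3.84 and 4.01% in the 4 mid-scoring classes.

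Seen from the strong summits, 62 of 422 (14.7%, exact interval 11.5 to 18.4%) had a weak summit within 2 kb, and 147 (34.8%, 30.3 to 39.6%) within 5 kb. No such share was computed for mid-scoring summits or for places picked at random. Since weak summits number 4.34 per 100 kb over all chromosomes, these shares alone do not show nearness to strong sites. Within 5 kb, 19 strong summits had weak ones on both sides, and the most beside 1 strong summit was 4. By the height of the strong summit, the share within 5 kb was 34.7% of the 248 strong summits scoring 1500 or more and 35.1% of the 174 scoring 1000 to under 1500.

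The 406 intervals between neighbouring strong summits held 436 of the weak summits, and the other 61 lay outside the outermost strong summits of their chromosomes. No weak summit was listed in 188 of the intervals (46.3%). Intervals under 10 kb held 5.38 weak and 8.87 mid-scoring summits per 100 kb, those of 10 to under 20 kb held 3.39 and 10.6, those of 20 to under 40 kb held 4.18 and 12.4, and those of 40 kb or more held 4.29 and 13.6. The relative position within an interval, 0 at a strong summit and 0.5 in the middle, had a median of 0.254 for weak summits (interval 0.232 to 0.281) and 0.289 for mid-scoring ones (0.278 to 0.300). Even spread over an interval gives a median of 0.25. The difference was -0.035 (interval -0.060 to -0.0055). It was -0.020 with chromosomes weighted equally and -0.014 with the strong limit at 500, and with the strong limit at 2000 it turned direction, to 0.0051. Moving the strong limit also moved the upper limit of the mid-scoring class.

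The interval with the most weak summits ran from position 752991 to position 921768 of chromosome VII, over 168.8 kb between strong summits scoring 1249 and 1206. It held 12 weak and 15 mid-scoring summits. The weak ones scored 27.7 to 49.1, with a median of 40.7, and reached from position 754769 to position 916534. They came in 8 runs of at most 3, at 7.11 per 100 kb.

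The distance to any listed summit differed little between weak and mid-scoring summits for the width of its interval. The nearest other summit lay a median of 1203 bp from a weak summit (interval 1076 to 1389 bp), 1349 bp from a mid-scoring one (1267 to 1431 bp) and 3092 bp from a strong one (2666 to 3399 bp). The difference between weak and mid-scoring summits was -146 bp, with an interval of -297 to 57 bp. Another summit lay within 1 kb of 216 weak summits (43.5%), of 582 mid-scoring summits (39.7%) and of 51 strong summits (12.1%).

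The list gives 1 summit for each peak number and no peak widths, so a weak site that was joined to a stronger peak has no entry of its own. How far this shapes the values within about 1 kb of strong summits was not tested. Sequences and genes at the weak summits are not given, since coordinates of the SK1 assembly were not mixed with those of the reference strain.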

How the data were processed

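Processed here was 1 list of Red1 summits, which the authors made from 4 anti-Red1 ChIP libraries and 4 inputs. The deposited score of each summit is a −log10 value; whether of a p-value or a q-value is not stated. Bowtie and MACS2 2.1.1 are named in the submitters' processing notes, with no options. Per the labels, replicates were combined, the assembly tag is SK1Yue, and the list is named as holding scores over 20 (its lowest is 20.0).

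Summits were sorted into classes by score, and distances, runs and densities were computed with Python 3.11.15, numpy 2.4.6, pandas 2.3.3 and scipy 1.17.1, after the measures were tested on simulated data with planted summits. Shares have exact (Clopper-Pearson) 95% intervals, medians order-statistic intervals, densities Poisson intervals, and differences intervals joined from both by the square-and-add method. Chromosome spans ran from the first to the last summit. The members, limits and measures were chosen with earlier results of these data known. The text names the 5 lowest members, the 5 on each side of the limit, the 3 nearest and 3 farthest from strong summits, the 3 longest runs and the interval with the most members; other named items were chosen after their values were seen.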

Additional observations from a re-analysis of the deposited data

How the results depend on the processing

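No paired analysis was possible because the list pools its replicates, and for the same reason no replicate could be left out. With 14 other settings, 86 values were recomputed over 8 results: 70 lay inside the interval of the reported value and 16 outside it or in the opposite direction. Of the 86, 3 had the opposite sign: the differences in relative position and in distance to any summit given below, and that in the share followed by a weak summit (0.63 points with a weak limit of 30). The reported intervals of the last 2 include 0. Where no other range is given, the mid-scoring class ended at the strong limit in use. It began at the weak limit where that was over 50. Weak limits of 30, 40, 75 and 100 moved the lowest share of a chromosome to 5.04, 10.1, 25.2 and 31.45%, as their construction gives. The highest share moved to 12.1, 37.4 and 48.4% with limits of 30, 75 and 100, and the SD of the shares to 2.16 points with a limit of 30. The share near strong summits differed by 0.90 points within 1 kb, 10.4 points within 5 kb and 1.54 points with a strong limit of 2000 (3.53 with 500). With that strong limit the difference in median distance to a strong summit was -4077 bp, and the difference in relative position was 0.0051, in the opposite direction; the cause was not tested. The difference in distance to any summit was -314 bp there, -316 bp with a weak limit of 100, and 85 bp against summits scoring 50 to under 100. The mid-scoring density near minus far from strong summits was -3.62 with a strong limit of 500, -0.47 for summits scoring 50 to under 100 and -3.42 against 5 to 10 kb. The weak density, near minus far, was 1.18 against 5 to 10 kb, -0.75 with chromosomes weighted equally, and between -0.33 and 0.57 otherwise. Without each chromosome in turn, a choice made after seeing the data, as were the near and far zones and the share followed by a strong summit, the difference within 2 kb lay between 6.01 and 7.13 points. The unknown depth limits every score.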

Other observations

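Weak summits were frequent at the ends of the listed range. Within 25 kb of a chromosome's outermost summit, 61 of 215 summits were weak (28.4%, exact interval 22.5 to 34.9%) and 7.44% were strong. The weak share was 18.7% from 25 to under 50 kb, 16.9% from 50 to under 100 kb and 20.9% beyond. The outermost summits are counted in the first zone by construction.

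Peak numbers that are missing from the list lay beside weak summits about as often as beside others. A missing number directly before or after was found for 27.9% of 484 weak summits (exact interval 23.9 to 32.1%), 26.5% of 1447 mid-scoring summits and 30.3% of 422 strong ones. Among weak summits it was 32.1% at scores of 20 to under 30, 25.9% at 30 to under 40 and 23.4% at 40 to under 50, and the exact intervals of these classes overlap.

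The strong summit nearest to a weak one had a median score of 1608, and that nearest to a mid-scoring one 1614, against 1638 over all strong summits.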
